A study of Mus musculus with 7 samples.

Results

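Acetylation of histone H3 at lysine 27 (H3K27ac), a mark of active promoters and enhancers, was measured by ChIP-seq at 10 genes for neuronal RNA-binding and splicing proteins: Elavl2, Elavl3, Elavl4, Nova1, Nova2, Rbfox1, Rbfox2, Rbfox3, Celf4 and Ptbp2. A merged peak was assigned to a gene when it overlapped the gene body, as annotated by GENCODE release M21 on mm10, or the 10 kb on either side of it. This gave 117 peaks out of 66841 in the whole table, and no peak belonged to more than 1 of the 10 genes. Rbfox2 had 29 peaks, Elavl2 26, Celf4 15, Rbfox1 10, Elavl3 and Nova2 9 each, Elavl4 and Ptbp2 6 each, Rbfox3 5 and Nova1 2. Of the 117 peaks, 103 touched a gene body and 21 lay within 2 kb of a transcription start site (TSS) of their own gene.

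The cells were A2Lox mouse embryonic stem (ES) cells, a single transgenic line in which HA-tagged NeuroD1, a proneural bHLH transcription factor, is expressed from a doxycycline-inducible promoter. All groups carried the transgene and were grown without feeder cells on gelatin. The 0 h group received no doxycycline, and the 12 h and 48 h groups received 500 ng/ml for that time, with 2 libraries (R1 and R2) per time point. Nothing in the labels says that R1 and R2 came from separate cultures, so p-values measure the spread between these libraries, which may be technical.

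Neurons process and regulate their RNA with a distinct set of proteins. The Elavl2, Elavl3 and Elavl4 products (HuB, HuC and HuD) bind AU-rich elements and stabilise or splice neuronal mRNAs, the Nova and Rbfox proteins bind short motifs in pre-mRNA and direct alternative splicing, Celf4 binds mRNAs in neurons and limits their translation and stability, and Ptbp2 is the neural paralogue of the splicing repressor Ptbp1. Rbfox3 is the antigen known as NeuN, a standard marker of mature neurons, whereas Rbfox2 is expressed in many tissues including stem cells.

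The libraries held between 6283103 and 8112895 reads in merged peaks, and values below are normalised read counts, that is, reads in a peak scaled to the mean library total of 6976014 reads. All 10 ES cell marker genes had a promoter peak, and their summed count was 24480 and 24970 (R1 and R2) without doxycycline, 27510 and 27570 after 12 h and 16340 and 21000 after 48 h, with 4 of the 10 promoter peaks lost at 48 h relative to 0 h. Of 10 neuronal markers, 7 had a promoter peak, with a summed count of 622 to 1350, and Dcx, Syt1 and Snap25 had none. Relative to 0 h, Gap43 and Tubb3 were gained after 48 h; the other 5 were not called, with log2 fold changes from -0.33 (Stmn3) to 0.47 (Nefl) and a median of 0.01 over the 7, and Ina and Stmn3 were lost after 12 h. Feeder fibroblast markers had a promoter peak at 3 of 8 genes (summed count 18.2 to 66.6), with none at Col1a2, Col3a1 or Postn and a gain at Pdgfrb after 48 h; primitive endoderm markers had one at 1 of 6 genes, with none at Gata4, Gata6 or Sox17. Because whole cultures were assayed, more cells with the mark and more of the mark per cell cannot be told apart. The 12 h libraries were low at GC-rich peaks, and 48 h R1 and R2 went opposite ways: across peaks, the deviation of a library from the mean of all 6 correlated with GC content at r = 0.31 and 0.42 (0 h), -0.39 and -0.51 (12 h), and 0.34 and -0.34 (48 h R1 and R2), as a description over peaks that share libraries. Peak GC content is therefore given beside the results it touches.

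After 48 h, 8 of the 10 genes had 1 or more gained peaks. Such genes made up 14.5% of all 16175 protein-coding loci with a peak and 26.1% of the 5268 with 5 or more peaks, a share that depends on the number of peaks (2 to 29 here); by their summed peaks, 6 of the 10 were gained. At 48 h relative to 0 h, 32 of the 117 peaks were gained (27.4%) and 2 were lost (1.71%), where a peak was called at an adjusted p below 0.05 in edgeR's quasi-likelihood test over all peaks. Over the whole table, 8.56% of peaks were gained and 5.45% lost in this comparison. At 12 h relative to 0 h, 19 peaks were gained (16.2%) at 6 genes and 3 were lost (2.56%), all at Elavl3, against 9.93% gained and 6.03% lost over all peaks. Between 12 h and 48 h, 20 peaks were gained (17.1%) and 4 were lost (3.42%), against 10.7% and 8.43% over all peaks. The median log2 fold change of the 117 peaks relative to 0 h was 0.41 after 12 h and 0.57 after 48 h, and that of all peaks -0.08 and -0.04. Both comparisons with 0 h share the same 2 control libraries, so their values are given side by side. Of all peaks called relative to 0 h, gains made up 62.2% after 12 h and 61.1% after 48 h with column totals, 74.2% and 70.5% with TMM factors, and 76.7% and 77.7% with DESeq2.

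The 39 peaks gained at either time relative to 0 h comprised 12 called at both times, 7 called at 12 h and not at 48 h, and 20 called at 48 h and not at 12 h. Their median GC content was 44.4%, 41.9% and 51.3%, respectively, and that of all merged peaks 50.2%. The part of GC content in the 12 h gains was not tested as a cause, but with an offset on GC content per library 13 of the 19 gains at 12 h and all 32 gains at 48 h were called, among 14 and 43 calls in all. By position, 18 of 70 intronic peaks were gained at 48 h, as were 8 of 21 promoter peaks, 3 of 6 peaks upstream of a gene, 2 of 15 that overlapped an exon away from a promoter and 1 of 5 downstream. The 21 lie near any TSS of a basic transcript of their gene, internal ones included. Of the promoter peaks with the highest mean count, 1 per gene, only that of Rbfox3 was gained. Over the whole table, 4.87% of 16416 promoter peaks, near TSSs of protein-coding transcripts, and 9.76% of all other peaks were gained in this comparison. Shares for the other positions separately were not computed. The counts of gained peaks depended on single libraries. Without 0 h R2, 2 peaks were gained at 12 h and 11 at 48 h. Without 0 h R1, 12 h R1 or 12 h R2, 8, 5 and 8 were gained at 12 h, and without either 48 h library, 29. Without 0 h R1, 21 were gained at 48 h. The gains from 12 h to 48 h numbered 8 without 12 h R1, 3 without 12 h R2 and 33 without 48 h R2. DESeq2 called 13 gains at 12 h and 21 at 48 h, all of them also called by edgeR.

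**Figure D1:**
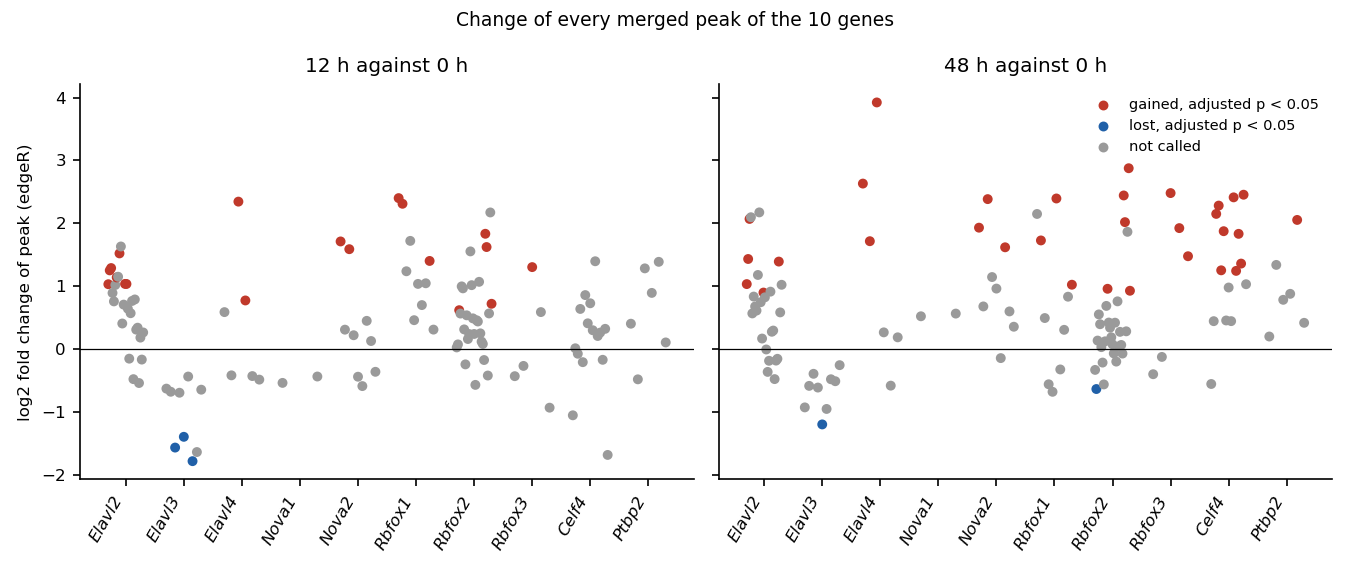
Log2 fold change of each of the 117 peaks relative to 0 h (vertical axis), by gene, after 12 h (left) and 48 h (right). Each point is a peak, red where gained, blue where lost and grey where not called. At 48 h, red points stand at 8 genes, all but Elavl3 and Nova1, and Celf4 has red points at 48 h alone.

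Sequences are shown for 4 of the 5 largest named gains at 48 h, 1 per gene, the other one not being shown here (RefSeq, GRCm38, the same assembly as mm10). NeuroD1 belongs to the bHLH factors that bind E-boxes (CANNTG), and its forms CAGATG, whose reverse complement reads CATCTG, and CAGCTG, a palindrome, were searched on both strands, do not overlap in these windows and are in capitals in the central 300 bases of each peak.
Rbfox3 intronic peak, plus strand, chr11:118728101-118728400: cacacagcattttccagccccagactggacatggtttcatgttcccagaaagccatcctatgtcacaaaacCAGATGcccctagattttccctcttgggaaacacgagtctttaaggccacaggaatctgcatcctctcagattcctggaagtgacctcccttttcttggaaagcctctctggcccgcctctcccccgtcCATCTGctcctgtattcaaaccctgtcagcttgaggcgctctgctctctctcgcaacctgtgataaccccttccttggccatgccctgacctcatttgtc
Rbfox2 intronic peak, plus strand, chr15:77291033-77291332: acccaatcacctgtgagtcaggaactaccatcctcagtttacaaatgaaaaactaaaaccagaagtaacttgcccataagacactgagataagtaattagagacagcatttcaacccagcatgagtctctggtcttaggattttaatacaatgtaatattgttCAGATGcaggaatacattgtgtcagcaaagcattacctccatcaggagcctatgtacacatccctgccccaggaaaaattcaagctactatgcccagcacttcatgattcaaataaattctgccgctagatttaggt
Nova2 peak upstream of the gene, plus strand, chr7:18924284-18924583: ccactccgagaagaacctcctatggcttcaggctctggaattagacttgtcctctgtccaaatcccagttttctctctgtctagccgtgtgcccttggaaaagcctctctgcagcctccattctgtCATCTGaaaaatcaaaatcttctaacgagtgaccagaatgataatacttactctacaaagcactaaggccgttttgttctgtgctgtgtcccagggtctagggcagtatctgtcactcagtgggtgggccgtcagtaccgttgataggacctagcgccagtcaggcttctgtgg
Elavl2 peak near the 3′ end of the gene, plus strand, chr4:91254286-91254585: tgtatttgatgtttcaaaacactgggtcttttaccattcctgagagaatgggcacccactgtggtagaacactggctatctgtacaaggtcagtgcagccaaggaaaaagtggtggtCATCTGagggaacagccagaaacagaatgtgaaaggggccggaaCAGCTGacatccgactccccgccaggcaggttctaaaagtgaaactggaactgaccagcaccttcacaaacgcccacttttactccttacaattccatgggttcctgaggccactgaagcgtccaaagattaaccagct

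The Rbfox3 intronic window held 2 CAGATG sites, and the Rbfox2, Nova2 and Elavl2 windows held 1 each. The Elavl2 window also held a CAGCTG. None of the other 3 windows held a CAGCTG. These windows are not a sample of all gains: within 250 bp of the centre, 5 of the 8 named gains at 48 h held a CAGATG and 3 held none. In central windows of the same 300 bases over the 66783 peaks on the main chromosomes, 18.5% held a CAGATG and 16.1% a CAGCTG. Within 250 bp of the centre, 41 of the 117 peaks (35.0%) held a CAGATG, compared with 29.3% of all peaks. Of these 41 peaks, 19 were gained after 48 h (46.3%), compared with 13 of the 76 peaks without the site (17.1%). Over all peaks the shares were 12.4% with the site and 7.00% without it. At 12 h, 10 of the 41 peaks with the site (24.4%) and 9 of the 76 without it (11.8%) were gained, and over all peaks 12.8% and 8.75%. A site is a match of letters and not a measured binding event.

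Elavl2 (chr4:91250763-91400785, minus strand) gained H3K27ac at several places along its gene body. The peak with its largest named gain, chr4:91253442-91255429, covered coding sequence 146 kb from the 5′ end of the gene, and its E-boxes are shown above. Its normalised read count was 32.8 and 18.04 without doxycycline, 77.2 and 48.8 after 12 h and 79.9 and 133 after 48 h. All libraries at 12 h and 48 h were above both 0 h libraries. The log2 fold change was 2.07 ± 0.33 (SE) after 48 h (edgeR adjusted p = 0.00012) and 1.29 ± 0.35 after 12 h (adjusted p = 0.015).

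The neighbouring peak over the 3′ end of Elavl2, chr4:91250442-91253019, had 92.4 and 76.4 without doxycycline, 206 and 197 after 12 h and 166 and 287 after 48 h. It was gained at both times, by 1.25 ± 0.25 after 12 h (adjusted p = 0.0012) and 1.43 ± 0.24 after 48 h (adjusted p = 0.00024) on the log2 scale. An internal promoter peak at chr4:91374502-91376511 was gained later. It had 54.4 and 53.1 without doxycycline, 52.5 and 69.0 after 12 h and 153 and 130 after 48 h. The 12 h libraries lay on either side of the 0 h values, and the peak was gained at 48 h by 1.39 ± 0.25 (adjusted p = 0.00045), also over 12 h (1.21 ± 0.25, adjusted p = 0.0020).

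The strongest Elavl2 promoter peak, chr4:91370874-91372407, had 247 and 293 without doxycycline, 206 and 166 after 12 h and 275 and 212 after 48 h. With all 6 libraries it was not called in any comparison (-0.15 ± 0.20 on the log2 scale after 48 h, adjusted p = 0.67; -0.54 after 12 h, adjusted p = 0.071). The 12 h loss was called in the fit of the compared 4 libraries (adjusted p = 0.00079) and without either 48 h library (adjusted p = 0.00086 and 0.0008), and the rise from 12 h to 48 h without 48 h R2 (0.57, adjusted p = 0.0036). Over all peaks, the fit of the compared 4 libraries, also cited for other genes below, called 21403 at 12 h, 10804 of them gained. The fit of all 6 libraries called 10666, 6638 of them gained. In total, 7 of the 26 Elavl2 peaks were gained at 12 h and 5 at 48 h, 4 of them at both. The 48 h libraries disagreed here: the summed count of all Elavl2 peaks was 1657 in R1 and 2623 in R2, against 1489 and 1328 at 0 h. The median GC content of Elavl2 peaks was 42.6%. Without 48 h R1, 12 Elavl2 peaks were gained at 48 h, and without 0 h R2, 3 at 48 h and none at 12 h by edgeR. The 12 h call of chr4:91253442-91255429 ended without 0 h R2 (adjusted p = 0.27) or 12 h R1 (adjusted p = 0.22), that of chr4:91250442-91253019 without 0 h R2 (adjusted p = 0.090), and the rise of chr4:91374502-91376511 over 12 h without 12 h R1 (adjusted p = 0.084).

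Elavl3 (chr9:22015005-22052023, minus strand), the pan-neuronal HuC gene, was the exception among the 10. With all 6 libraries, none of its 9 peaks was gained in any of the 3 comparisons by edgeR, DESeq2 or with the GC offset. All 9 had a negative log2 fold change at 12 h and at 48 h relative to 0 h. The nearest TSS was that of Elavl3 for 4 of the 9 and that of the neighbour Prkcsh for the others. The peaks downstream of the gene body overlapped Prkcsh. The strongest Elavl3 promoter peak, chr9:22050626-22051198, had 25.7 and 32.9 without doxycycline, 8.58 and 8.28 after 12 h and 33.3 and 10.3 after 48 h. Both 12 h libraries were below both 0 h libraries, whereas the 48 h libraries lay on either side of the 0 h range. The loss at 12 h was -1.78 ± 0.49 on the log2 scale (adjusted p = 0.016), at a GC content of 73.1%.

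Near the 3′ end of Elavl3, the peak chr9:22017898-22018537 had 30.8 and 29.7 without doxycycline, 13.9 and 9.20 after 12 h and 14.4 and 12.0 after 48 h, all later libraries being lower. It was lost after 12 h (-1.39 ± 0.40, adjusted p = 0.020) and after 48 h (-1.20 ± 0.39, adjusted p = 0.041). The peak chr9:22015187-22015721 was also lost after 12 h (-1.56 ± 0.41, adjusted p = 0.012). The nearest TSS to both was that of Prkcsh, and the promoter peak also overlapped the gene model Gm49318. Elavl3 peaks were small, at 6.67 to 31.7 reads on average. The promoter call ended with DESeq2 (adjusted p = 0.072) and without any single 0 h or 12 h library (adjusted p = 0.064 to 0.19), and neither DESeq2 nor any fit without a single 0 h or 12 h library called any of the 3 losses at 12 h (adjusted p = 0.071 to 0.27 for the other 2 peaks without a library). The 48 h loss at chr9:22017898-22018537 was not called in 8 of 12 alternatives, among them TMM factors (adjusted p = 0.054) and DESeq2 (adjusted p = 0.30).

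Elavl4 (chr4:110203722-110351909, minus strand), which encodes HuD, gained H3K27ac at 3 internal promoter peaks after 48 h relative to 0 h. The peak chr4:110292368-110292822, 59.3 kb from the 5′ end chosen after its values were seen and within 2 kb of a downstream TSS, held 2 and 1 reads without doxycycline, 10 and 7 after 12 h and 27 and 25 after 48 h. This is a ratio of 16.1 between 48 h and 0 h, with an exact 95% interval of 5.21 to 80.6 that covers counting error only. The gain was called after 48 h (adjusted p = 0.00018) and after 12 h (adjusted p = 0.043), and 48 h exceeded 12 h (adjusted p = 0.023).

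The adjacent Elavl4 peak chr4:110289814-110291051, also chosen after its values were seen, had 21.6 and 18.04 without doxycycline, 12.9 and 16.6 after 12 h and 83.3 and 49.0 after 48 h. It was lower at 12 h than at 0 h in both libraries, without a call (adjusted p = 0.50), and then gained by 1.72 ± 0.34 relative to 0 h (adjusted p = 0.0012) and 2.13 ± 0.35 over 12 h (adjusted p = 0.00034). Another internal promoter peak, chr4:110285901-110286209, held 4 and 1 reads without doxycycline and 20 and 14 after 48 h, a gain (adjusted p = 0.014) that was not called without 0 h R2 (adjusted p = 0.21) or 48 h R1 (adjusted p = 0.062) and for which DESeq2 gave no adjusted p. The peak at the 5′ promoter, chr4:110350793-110352350, had 166 and 150 without doxycycline, 113 and 113 after 12 h and 206 and 155 after 48 h. Its 48 h values overlapped those at 0 h (log2 fold change 0.19 ± 0.21, adjusted p = 0.63), and 48 h exceeded 12 h (0.67, adjusted p = 0.034). Its lower level at 12 h was called with the compared 4 libraries (-0.49, adjusted p = 0.018) and without either 48 h library. No test compared the promoters with each other.

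The largest Elavl4 peak by reads, chr4:110309514-110315437 in an intron, had 876 and 741 without doxycycline, 1335 and 1430 after 12 h and 796 and 1147 after 48 h. It was gained after 12 h (0.77 ± 0.17, adjusted p = 0.0027) and lost again between 12 h and 48 h (-0.51 ± 0.17, adjusted p = 0.033), at a GC content of 39.1%. With the GC offset, none of the 6 Elavl4 peaks was called gained at 12 h, compared with 2 by edgeR without it, and 3 were gained at 48 h either way. The fall of the intronic peak from 12 h to 48 h was not called in 8 of 12 alternatives, among them DESeq2 (adjusted p = 0.061), the GC offset (adjusted p = 0.42) and the fits without either 0 h library, either 12 h library or 48 h R1 (adjusted p = 0.068 to 0.28), and its 12 h gain not with the GC offset (adjusted p = 0.15) or without 0 h R2 (adjusted p = 0.15) or 12 h R2 (adjusted p = 0.087). The 48 h call of chr4:110289814-110291051 ended without 0 h R2 (adjusted p = 0.070). The 12 h call of chr4:110292368-110292822 ended without any single 0 h or 12 h library (adjusted p = 0.095 to 0.27), and its rise from 12 h to 48 h without either 12 h library or 48 h R1 (adjusted p = 0.082 to 0.26).

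Nova2 (chr7:18925888-18965319, plus strand), the Nova gene of the developing cortex, rose early at 2 of the peaks upstream of its TSS. The upstream peaks chr7:18921264-18921773 (0.31 on the log2 scale, edgeR adjusted p = 0.55) and chr7:18925313-18925791 (0.22, adjusted p = 0.77) were not called at 12 h. Neither was called at 48 h relative to 0 h (adjusted p = 0.18 and 0.069). The peak chr7:18924000-18924867, centred 1.5 kb upstream of the 5′ end, had 14.4 and 7.43 without doxycycline, 33.2 and 33.1 after 12 h and 71.1 and 45.6 after 48 h. The groups did not overlap and the values stood in the order of time. The log2 fold change was 1.59 ± 0.41 after 12 h (adjusted p = 0.0098) and 2.38 ± 0.38 after 48 h (5.22-fold, adjusted p = 0.00011).

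A second Nova2 peak 5.0 kb upstream, chr7:18920523-18921183, had 13.3 and 8.49 without doxycycline, 36.5 and 35.9 after 12 h and 41.1 and 43.0 after 48 h. It reached most of its change by 12 h (1.71 ± 0.38, adjusted p = 0.0032), with 1.93 ± 0.37 after 48 h (adjusted p = 0.00080). The strongest Nova2 promoter peak, just downstream of the TSS, chr7:18925968-18926548, had 26.7 and 34.0 without doxycycline, 23.6 and 21.2 after 12 h and 85.5 and 35.2 after 48 h. R1 and R2 differed widely at 48 h, at a GC content of 71.9%, and the gain relative to 0 h was not called (0.96 ± 0.36, adjusted p = 0.073), whereas it was called without 48 h R2 (1.49, adjusted p = 2e-05), with TMM factors (adjusted p = 0.0499) and with the GC offset (adjusted p = 0.012). Without 0 h R2 the 12 h calls of both upstream peaks ended (adjusted p = 0.12 for the far and 0.21 for the near one), as did the 48 h call of the far one (adjusted p = 0.065). The 12 h call of the near peak also ended without 12 h R1 (adjusted p = 0.064) or 12 h R2 (adjusted p = 0.084).

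Nova1 (chr12:46694517-46818929, minus strand), the paralogue known from hindbrain and spinal cord, had 2 peaks, both at its promoter. The larger, chr12:46817836-46819214, had 179 and 173 without doxycycline, 128 and 115 after 12 h and 319 and 189 after 48 h. It stood highest at 48 h and lowest at 12 h. Relative to 0 h neither change was called with all 6 libraries (0.52 ± 0.23 at 48 h, adjusted p = 0.13), and 48 h exceeded 12 h (1.06 ± 0.23, adjusted p = 0.0032). The 12 h loss was called with the compared 4 libraries (-0.54, adjusted p = 0.0055) and without either 48 h library (adjusted p = 0.0054 and 0.0046). The 48 h gain over 0 h was called with the GC offset (0.66, adjusted p = 0.0029). Summed over both Nova1 peaks, the change at 12 h was -0.53 by edgeR (adjusted p = 0.093) and -0.09 with the GC offset (adjusted p = 0.72). The call of 48 h over 12 h ended without 12 h R2 (adjusted p = 0.098), and the gain over 0 h was called without 48 h R2 (0.86, adjusted p = 1.6e-05).

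**Figure D2:**
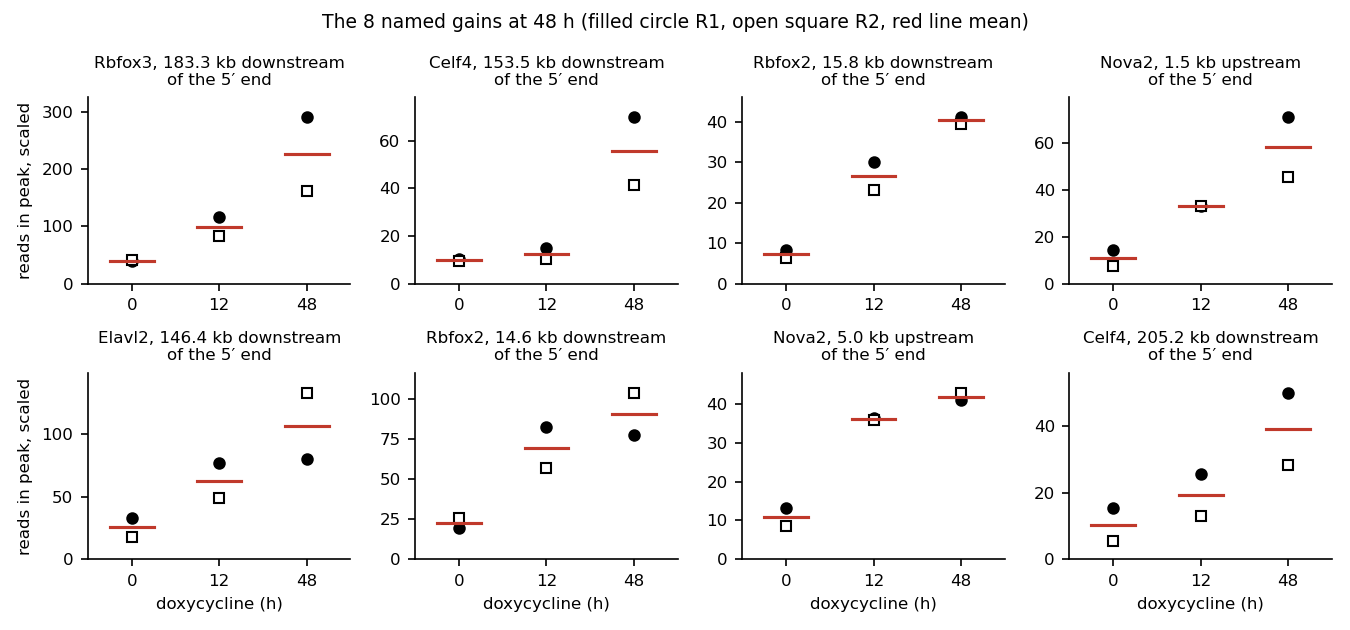
Normalised read counts (vertical axis) of the 8 peaks with the largest called gains at 48 h and at least 20 reads on average, by hours of doxycycline. Filled circles are R1, open squares R2 and red lines their mean; in all 8 panels both 48 h libraries stand above both 0 h libraries, and at the Celf4 peak 153.5 kb downstream the 12 h libraries remain near those of 0 h.

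Rbfox3 (chr11:118489762-118911597, minus strand) held the peak with the largest called gain at 48 h among those of at least 20 reads on average. This peak, chr11:118726904-118729597, lay in an intron 183 kb from the 5′ end and had 40.0 and 40.3 without doxycycline, 116 and 83.7 after 12 h and 291 and 162 after 48 h. It rose at each step with no overlap between time points. The log2 fold change was 1.30 ± 0.30 after 12 h (adjusted p = 0.0045) and 2.48 ± 0.29 after 48 h (5.58-fold, adjusted p = 1.6e-06). Without any single library the 48 h gain was still called.

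Beside it, the small peak chr11:118729810-118730164 was gained after 48 h (1.92 ± 0.51, adjusted p = 0.013), and 3 CAGATG sites lay within 250 bp of its centre. This call ended with DESeq2 (adjusted p = 0.072) and without 0 h R1 (adjusted p = 0.072), 0 h R2 (adjusted p = 0.18) or 48 h R1 (adjusted p = 0.0501). The single Rbfox3 promoter peak, chr11:118908474-118909549, had 17.4 and 17.0 without doxycycline, 12.9 and 5.52 after 12 h and 77.7 and 21.5 after 48 h. It was called after 48 h (1.48 ± 0.46, adjusted p = 0.032), at a GC content of 73.0%, and this rested on 48 h R1: without it the log2 fold change was 0.32 (adjusted p = 0.69). DESeq2 did not call it either (adjusted p = 0.10), nor was it called without 0 h R1 (adjusted p = 0.19) or 0 h R2 (adjusted p = 0.26). The 12 h call of the large intronic peak ended without 0 h R1 (adjusted p = 0.070), 0 h R2 (adjusted p = 0.11) or 12 h R1 (adjusted p = 0.10).

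Rbfox2 (chr15:77078990-77307004, minus strand) was already marked at 0 h and gained at sites around its 5′ end. Its promoter peak, chr15:77305003-77308060, had 500 and 568 without doxycycline, 413 and 385 after 12 h and 782 and 520 after 48 h. With all 6 libraries the change from 0 h was not called at 12 h (-0.42 ± 0.18, adjusted p = 0.12) or 48 h (0.28 ± 0.18, adjusted p = 0.34). It was called as a loss at 12 h with the compared 4 libraries (adjusted p = 0.00098) and without either 48 h library (adjusted p = 0.00099 and 0.00083), and as a gain at 48 h without 48 h R2 (0.55, adjusted p = 0.00017). At 15.8 kb into the gene, the intronic peak chr15:77290844-77291520 had 8.21 and 6.37 without doxycycline, 30.0 and 23.0 after 12 h and 41.1 and 39.5 after 48 h. It was gained after 12 h (1.83 ± 0.43, adjusted p = 0.0052) and after 48 h (2.44 ± 0.40, 5.44-fold, adjusted p = 0.00016).

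The Rbfox2 peak next to it, chr15:77291780-77293069, had 19.5 and 25.5 without doxycycline, 82.6 and 57.03 after 12 h and 77.7 and 104 after 48 h. It was gained after 12 h (1.62 ± 0.32, adjusted p = 0.0012) and 48 h (2.02 ± 0.31, adjusted p = 7e-05). A broad peak 7.7 kb upstream of the gene, chr15:77312575-77316930, rose from 332 and 275 without doxycycline to 519 and 483 after 12 h and 532 and 623 after 48 h (0.93 ± 0.17 at 48 h, adjusted p = 0.00062). An internal promoter peak, chr15:77151684-77154552, rose between 12 h and 48 h (0.72 ± 0.20, adjusted p = 0.013), having 176 and 137 without doxycycline, 183 and 186 after 12 h and 288 and 320 after 48 h.

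At the other end of Rbfox2, the peak over its 3′ end, chr15:77077667-77082331, had 511 and 484 without doxycycline, 506 and 542 after 12 h and 304 and 336 after 48 h. The 48 h libraries were below all the others, and the loss was called relative to 0 h (-0.63 ± 0.17, adjusted p = 0.012) and to 12 h (-0.71 ± 0.17, adjusted p = 0.0055). The nearest TSS to this peak was that of Mb, the myoglobin gene. The loss relative to 0 h was not called with DESeq2 (adjusted p = 0.050) or without either 0 h library (adjusted p = 0.12 for each), and that relative to 12 h not without 12 h R1 (adjusted p = 0.071) or 12 h R2 (adjusted p = 0.13). The 12 h call of chr15:77290844-77291520 ended without 0 h R2 (adjusted p = 0.12) or 12 h R1 (adjusted p = 0.077), and that of chr15:77291780-77293069 without 0 h R1 or 12 h R1 (adjusted p = 0.051 and 0.050). Without 0 h R2, the 48 h gain of the broad upstream peak was not called (adjusted p = 0.079), and the rise of chr15:77151684-77154552 over 12 h was not called without 12 h R1 or 12 h R2 (adjusted p = 0.15 and 0.17).

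Rbfox1 (chr16:5885355-7411526, plus strand), a gene of 1526172 bp, had 10 intronic peaks and no merged peak within 2 kb of a TSS. Most of these peaks were small, with a median of 14.8 reads. The named gain at 12 h, chr16:7076091-7076854, had 15.4 and 9.55 without doxycycline, 35.4 and 31.3 after 12 h and 14.4 and 29.2 after 48 h. It was high in both 12 h libraries and in 48 h R2, while 48 h R1 lay within the 0 h range. The gain at 12 h was 1.40 ± 0.41 (adjusted p = 0.022), and that at 48 h was not called (0.83 ± 0.43, adjusted p = 0.22).

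In Rbfox1, 3 peaks were gained at 12 h and 3 at 48 h, and 1 was called at both times. The peak chr16:7404520-7405711, near the 3′ end, was gained at 48 h only by call (1.02 ± 0.28, adjusted p = 0.014), having 45.1 and 35.0 without doxycycline, 56.8 and 43.2 after 12 h and 79.9 and 83.4 after 48 h. It was not called without 0 h R1 (adjusted p = 0.060) or 0 h R2 (adjusted p = 0.24). The median GC content of Rbfox1 peaks was 44.4%. DESeq2 called none of the 12 h gains, edgeR with the GC offset called 3, and the named one ended with DESeq2 (adjusted p = 0.080) and without any single 0 h or 12 h library (adjusted p = 0.071 to 0.26).

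Celf4 (chr18:25477632-25754157, minus strand) had its called peak gains late and within its introns. It had no merged peak within 2 kb of a TSS, and 9 of its 15 peaks were gained at 48 h while none was gained at 12 h by edgeR, DESeq2 or with the GC offset. All 9 were intronic, at 153.5 to 208.6 kb from the 5′ end. The summed Celf4 peaks were called gained at 12 h with the GC offset (0.48, adjusted p = 0.036). Without the offset they were not called by edgeR (0.15, adjusted p = 0.61). The peak with the largest named gain, chr18:25600230-25601106, which overlaps the antisense gene model Gm3227, had 10.3 and 9.55 without doxycycline, 15.0 and 10.1 after 12 h and 70.0 and 41.3 after 48 h. The 12 h libraries stood close to those of 0 h and the 48 h libraries far above both. The log2 fold change was 0.32 ± 0.49 after 12 h (adjusted p = 0.67), 2.46 ± 0.39 after 48 h (5.48-fold, adjusted p = 0.00011) and 2.13 ± 0.38 between 12 h and 48 h (adjusted p = 0.00059).

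The widest of the Celf4 peaks, chr18:25566304-25568641, had 86.2 and 59.4 without doxycycline, 86.8 and 81.9 after 12 h and 201 and 146 after 48 h, and was gained by 1.24 ± 0.25 after 48 h (adjusted p = 0.0013), though not without 0 h R2 (adjusted p = 0.11). The peak chr18:25548679-25549325 had 15.4 and 5.31 without doxycycline, 25.7 and 12.9 after 12 h and 50.0 and 28.4 after 48 h. Its 12 h and 0 h values overlapped, and the gain at 48 h was 1.88 ± 0.46 (adjusted p = 0.0071), a call that ended without 0 h R2 (adjusted p = 0.22). Relative to 12 h, 7 Celf4 peaks were gained, 6 of them among the 9, and 4 were gained without 12 h R1 and 1 without 12 h R2. The number gained at 48 h was 6 with DESeq2, 9 with the GC offset, 7 without 48 h R1, 5 without 0 h R1 and 2 without 0 h R2. The median GC content of Celf4 peaks was 52.1%.

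**Figure D3:**
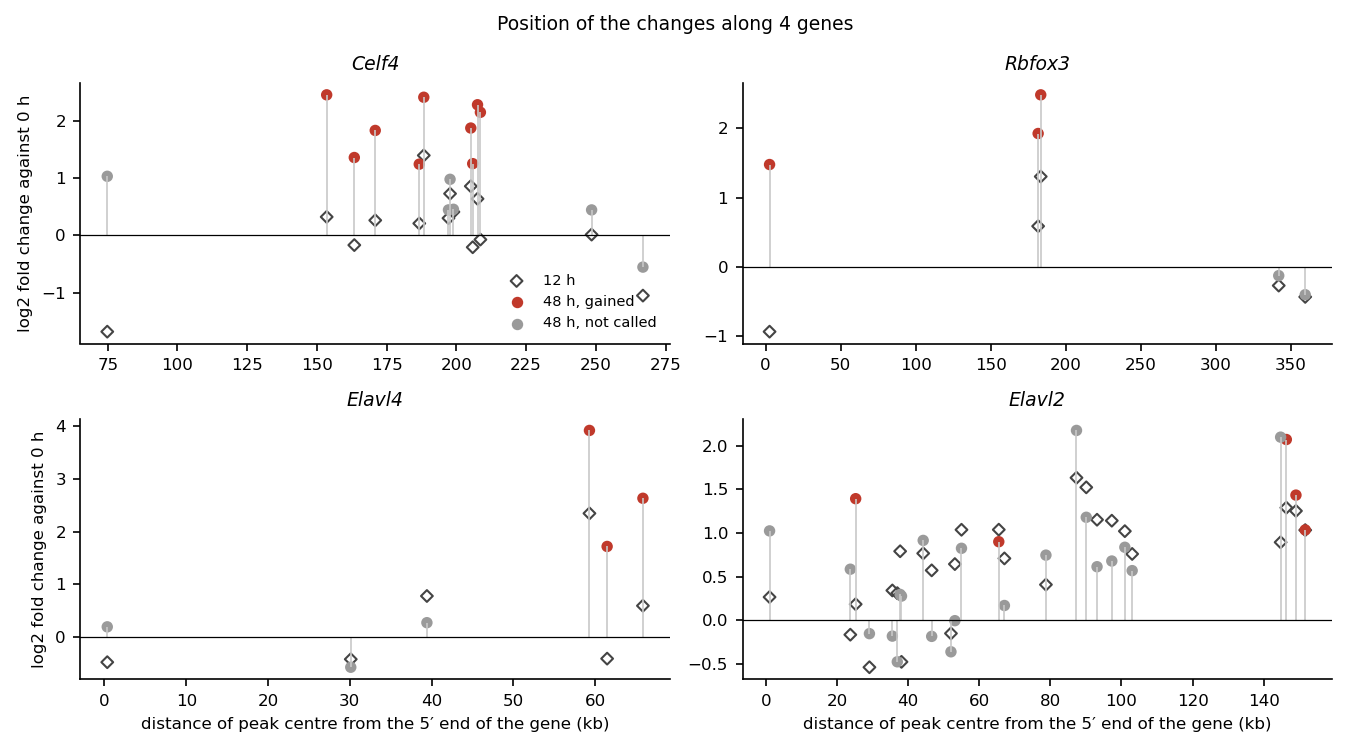
Log2 fold change of each peak relative to 0 h (vertical axis) against the distance of its centre from the 5′ end of the gene in kb (horizontal axis), for Celf4, Rbfox3, Elavl4 and Elavl2. Open diamonds are 12 h, and filled points 48 h, red where gained and grey where not called. The Celf4 gains lie between 153.5 and 208.6 kb into the gene, and the Elavl4 gains between 59.3 and 65.9 kb.

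Ptbp2 (chr3:119718742-119784466, minus strand) was strongly marked before induction. Its main promoter peak, chr3:119781827-119784187, had 469 and 494 without doxycycline, 485 and 551 after 12 h and 829 and 461 after 48 h. The 48 h libraries lay on either side of all the others, and no comparison was called (0.42 ± 0.20 at 48 h, adjusted p = 0.18). A smaller peak centred 3.2 kb into the gene, chr3:119780965-119781537, had 8.21 and 6.37 without doxycycline, 19.3 and 19.3 after 12 h and 17.8 and 42.1 after 48 h. It was the only 1 of the 6 Ptbp2 peaks gained at 48 h by edgeR (2.05 ± 0.47, adjusted p = 0.0044), at a GC content of 38.4%. With the GC offset, the main promoter peak was also called, after 12 h (0.44, adjusted p = 0.033) and after 48 h (0.56, adjusted p = 0.0025). The main promoter peak was also called at 48 h without 48 h R2 (0.79, adjusted p = 1.1e-08), and the smaller peak was not called without 0 h R2 (adjusted p = 0.12) or 48 h R2 (adjusted p = 0.11).

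The promoter peaks can be ordered by level per kb of peak. At 0 h, Ptbp2 (204 normalised reads per kb), Elavl2 (176), Rbfox2 (175), Nova1 (128) and Elavl4 (101) stood above Nova2 (52.2), Elavl3 (51.1) and Rbfox3 (16), while Rbfox1 and Celf4 had no such peak. The levels of Elavl2 and Rbfox2, and of Nova2 and Elavl3, differed by less than the spread between their libraries. At 48 h the level per kb was 273 at Ptbp2, 213 at Rbfox2, 184 at Nova1, 159 at Elavl2, 116 at Elavl4, 104 at Nova2, 46.1 at Rbfox3 and 38.1 at Elavl3. R1 lay above R2 at each of these peaks at 48 h, such as Ptbp2 (829 and 461 reads), Nova1 (319 and 189) and Nova2 (85.5 and 35.2). Neighbouring places in the 48 h order are therefore not settled.

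Summing all peaks of a gene gave 1 value per locus, tested over 16175 protein-coding loci with at least 1 peak. At 48 h relative to 0 h, 6 of the 10 loci were gained and none was lost, against 6.45% of all loci gained and 5.35% lost. Celf4 had the largest change, from 257 and 203 without doxycycline and 269 and 241 after 12 h to 751 and 453 after 48 h (1.38 ± 0.22 on the log2 scale, adjusted p = 0.0028). Rbfox3 followed, from 174.5 and 203 without doxycycline to 506 and 293 after 48 h (1.08 ± 0.26, adjusted p = 0.022). Nova2 rose by 0.89 ± 0.21 (adjusted p = 0.022), Rbfox1 by 0.79 ± 0.21 (adjusted p = 0.031), Elavl2 by 0.61 ± 0.17 (adjusted p = 0.044) and Rbfox2 by 0.31 ± 0.09 (adjusted p = 0.041). All 10 genes but Elavl3 had a positive value. The Elavl3 locus (-0.58, edgeR adjusted p = 0.075) was called lost with TMM factors (-0.60, adjusted p = 0.040) and with the GC offset (-0.50, adjusted p = 0.019). DESeq2 did not call it (-0.61, adjusted p = 0.093).

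At 12 h relative to 0 h, the Rbfox1, Elavl2, Elavl4 and Rbfox2 loci were gained and the Elavl3 locus was lost, against 7.13% gained and 30.2% lost over all loci. Rbfox1 had 127 and 98.7 at 0 h and 206 and 246 after 12 h (1.00 ± 0.20, adjusted p = 0.0090). Elavl3 had 181 and 201 without doxycycline, 86.85 and 95.7 after 12 h and 140 and 115 after 48 h (-1.06 ± 0.20 at 12 h, adjusted p = 0.0065). With the GC offset the Elavl3 value at 12 h was -0.56 (adjusted p = 0.018). The median GC content of Elavl3 peaks was 60.2%. Relative to 12 h, the Celf4, Nova1, Rbfox3 and Nova2 loci were gained at 48 h, against 38.2% gained and 7.73% lost over all loci.

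The shares over all loci depend on the scaling, since the median locus changed by -0.29 at 12 h relative to 0 h and by 0.32 between 12 h and 48 h on the log2 scale. Gains were 19.1% of the calls at 12 h with column totals, 73.4% with TMM factors and 84.4% with DESeq2, and between 12 h and 48 h they were 83.2%, 42.0% and 30.4%. With TMM factors or DESeq2, the median locus was near 0, and the 5 loci called at 12 h kept their call and direction. With the GC offset the Elavl4 locus was not called at 12 h (0.11, adjusted p = 0.39), and with a replicate block the Rbfox2 locus was not (adjusted p = 0.069). The Ptbp2 locus was also called gained at 12 h, with TMM factors (adjusted p = 0.048) and DESeq2 (adjusted p = 0.049). At 48 h relative to 12 h the Nova2 and Rbfox3 calls ended (adjusted p = 0.090 and 0.063 with TMM factors, 0.17 and 0.073 with DESeq2). In that comparison the Elavl4 locus was called lost with TMM factors (-0.54, adjusted p = 0.023) and DESeq2 (-0.56, adjusted p = 0.0081). Without any single 0 h or 12 h library, none of the 10 loci was called at 12 h by edgeR. The 48 h gain of Celf4 was not called without 0 h R2 (adjusted p = 0.10), and those of Rbfox3, Nova2, Rbfox1, Elavl2 and Rbfox2 not without 0 h R1 (adjusted p = 0.095 to 0.19) or 0 h R2 (adjusted p = 0.20 to 0.41). The Nova2, Rbfox1, Elavl2 and Rbfox2 gains at 48 h were also not called without either 12 h library (adjusted p = 0.051 to 0.14), that of Elavl2 with TMM factors (adjusted p = 0.084) and that of Rbfox2 with TMM factors or DESeq2 (adjusted p = 0.11 and 0.15).

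**Figure D4:**
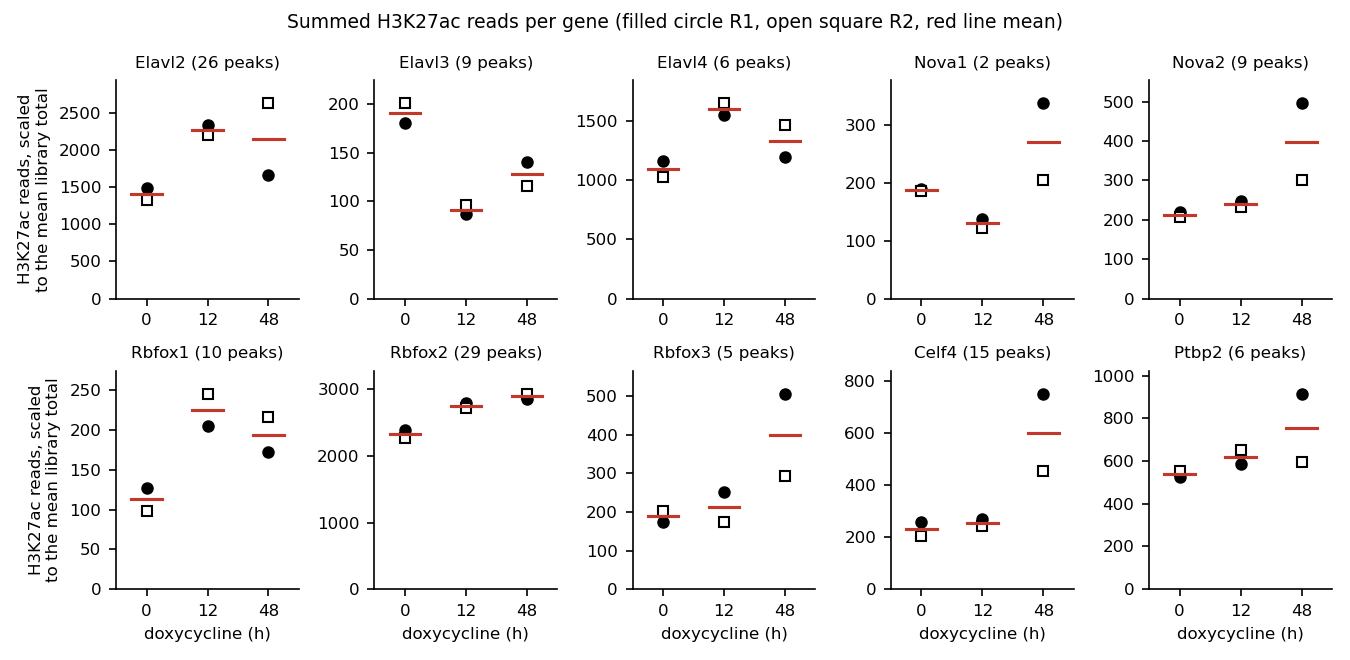
Summed normalised read count of all peaks of each of the 10 genes (vertical axis, from 0) by hours of doxycycline. Filled circles are R1, open squares R2 and red lines their mean; Celf4 stands at 751 and 453 at 48 h against 257 and 203 at 0 h, Elavl3 is lowest at 12 h, and R1 lies well above R2 at 48 h for Celf4, Rbfox3, Nova1, Nova2 and Ptbp2 but below it for Elavl2.

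Other RNA-binding protein genes were followed at their promoter peaks. Of 22 further genes with neuronal or developmental roles, 16 had a promoter peak; at 48 h relative to 0 h, 1 was gained and none lost, at 12 h 1 was gained and 3 were lost, and from 12 h to 48 h 4 were gained. Over all promoter peaks of protein-coding genes, 4.87% were gained and 2.88% lost at 48 h, 2.4% and 17.0% at 12 h, and 27.4% and 2.61% from 12 h to 48 h, so that 1 of 16 is near the background. The gained one was Srrm4, which encodes a neuronal regulator of microexon splicing, with 150 and 117 without doxycycline, 229.5 and 219 after 12 h and 655 and 417 after 48 h (log2 fold change 2.00, 48 h over 0 h, adjusted p = 6.1e-07). It rose at each step without overlap. The losses at 12 h were at Celf1, Celf5 and Cpeb3. The median log2 fold change of the 16 peaks was -0.29 at 12 h and 0.18 at 48 h.

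Of 22 broadly expressed or epithelial splicing genes, all had a promoter peak, none was gained and 1 was lost at 48 h relative to 0 h, 5 were lost at 12 h, and 4 were gained and 1 lost from 12 h to 48 h, near the shares over all promoter peaks given above. The loss at 48 h was at Esrp1, which directs epithelial splicing, with 309 and 330 without doxycycline, 175 and 210 after 12 h and 121 and 125 after 48 h (-1.38 on the log2 scale, adjusted p = 3.2e-05). It fell at each step. The median log2 fold change of the 22 peaks was -0.35 at 12 h and -0.06 at 48 h, beside the GC trend of the 12 h libraries.

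**Figure D5:**
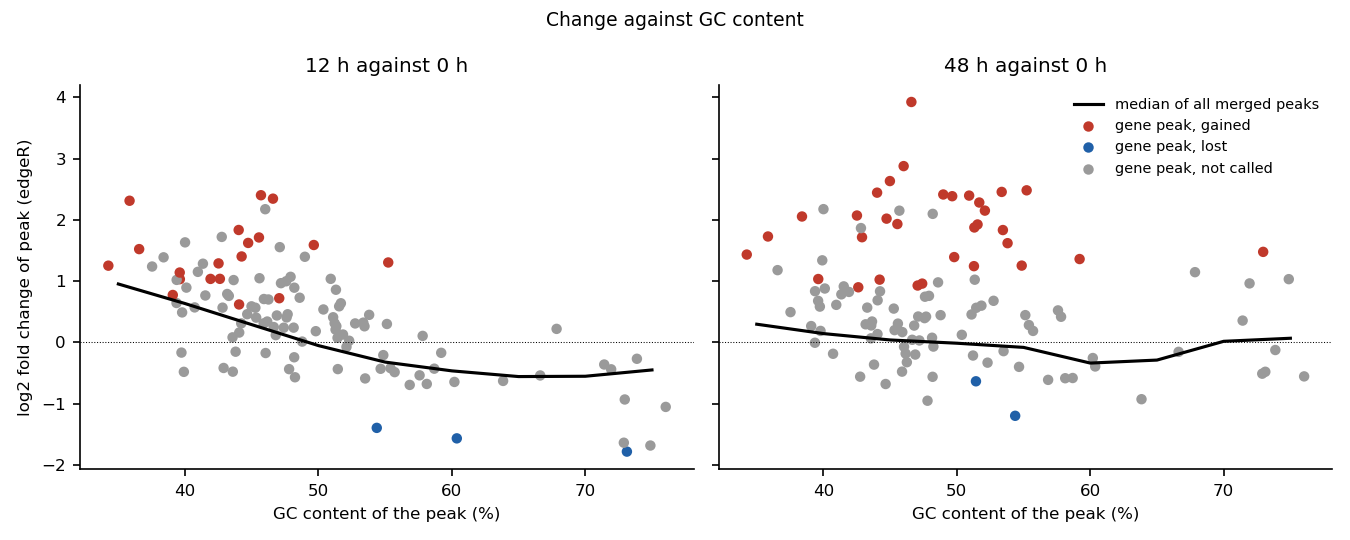
Log2 fold change relative to 0 h (vertical axis) against the GC content of the peak in percent (horizontal axis), after 12 h (left) and 48 h (right). Points are the 117 peaks, red where gained, blue where lost and grey where not called, and the black line is the median of all merged peaks in bins of GC content, which at 12 h falls from 0.95 at 35% GC to -0.46 at 60% GC.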

How the data were processed

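H3K27ac ChIP-seq was analysed from 6 libraries of A2Lox ES cells, and the Input library was not used here because the count table has columns for these 6 only. The authors mapped the reads with Bowtie2 (local mode, mm10), used SAMtools 0.1.19, called peaks with MACS2 against Input, merged them over samples and replicates and counted reads with QuasR. The raw counts per merged peak were deposited without scaling. Versions of the other tools are not given in the sources used here. Peaks were called on samples that include the induced ones, so every peak was tested whether or not it was marked at 0 h.

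Counts were tested with edgeR 4.0.16 in R 4.3.3 (quasi-likelihood test), with 1 model of all 6 libraries, the time point as factor, column totals as offset and Benjamini-Hochberg adjustment over all 66841 peaks, or over 16175 loci, at 0.05. SEs were derived from the log2 fold change and the F statistic. The biological coefficient of variation was 14.9% for peaks and 10.5% for loci, with 3 residual degrees of freedom. The median peak of the table held 30.5 reads averaged over libraries and the median peak of the 10 genes 22.7; 65 of their 117 peaks held at least 20. Intervals and counts of few reads cover counting error only.

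A promoter peak overlapped 2 kb on either side of a TSS of a basic GENCODE transcript, and of several the one with the highest mean count stood for the gene. Besides all 10 genes, the text names the peaks with the largest gains (8 at 48 h, 5 at 12 h) and losses (1 at 48 h, none eligible at 12 h) among called peaks whose mean was 20 reads or more, without overlap between the compared time points. All other peaks described were picked with their values in view. The genes and gene lists were chosen with earlier results of these data known. Nearest TSSs are of protein-coding genes, and an assignment by position does not show which gene a peak acts on.

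Alternatives were TMM factors, DESeq2 1.42.0, dropping peaks without 10 counts in 2 libraries, a replicate block, the 4 compared libraries alone, a lowess offset on GC content (span 0.3), each library left out, the gene body alone, and peaks whose nearest TSS is that of 1 of the 10 genes. Scripts were tested on simulated data. Sequences, GC content and E-boxes were read from GRCm38 with pysam 0.24.0, and figures were drawn with matplotlib 3.10.9.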

Additional observations from a re-analysis of the deposited data

Results flagged for a closer look

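The change from 0 h was compared between the times at the peaks chosen by the naming rule, the strongest promoter peak of each gene and the 2 Elavl4 internal promoter peaks with the smallest p-values. At 10 of these, it differed between 12 h and 48 h by the edgeR test of 48 h against 12 h. Over all merged peaks, 10.7% were gained and 8.43% lost in that test. Many of the peaks were picked by their values at 48 h, so the count of 10 is not independent of that choice. Both changes use the same 0 h libraries, so the test compares 48 h with 12 h directly. The Celf4 peak chr18:25600230-25601106 was higher at 48 h by 2.13 on the log2 scale (adjusted p = 0.00059). The Rbfox3 intronic peak chr11:118726904-118729597 was higher by 1.18 (adjusted p = 0.0034), and the Rbfox3 promoter peak by 2.41 (adjusted p = 0.0026). The Elavl4 internal promoter peaks chr4:110289814-110291051 and chr4:110292368-110292822 were higher by 2.13 (adjusted p = 0.00034) and 1.58 (adjusted p = 0.023).

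Promoter peaks that were lower at 12 h than at 0 h, without a call in the fit of all 6 libraries, were also higher at 48 h than at 12 h: Nova2 by 1.40 (adjusted p = 0.011), Nova1 by 1.06 (adjusted p = 0.0032), Rbfox2 by 0.70 (adjusted p = 0.010) and Elavl4 by 0.67 (adjusted p = 0.034). The direction is common among promoters here: of 16416 promoter peaks of protein-coding genes, 27.4% were gained from 12 h to 48 h and 17.0% lost at 12 h. With the compared 4 libraries the lower level at 12 h was called at Nova1, Rbfox2 and Elavl4 (adjusted p = 0.0055, 0.00098 and 0.018). That fit called 21403 of all peaks at 12 h, 10804 of them gained, against 10666 and 6638 with all 6 libraries. The GC content of the 4 peaks was 71.9%, 57.6%, 55.4% and 55.7%. The median change between 12 h and 48 h over all merged peaks was 0.22 in the bin around 55% GC and 0.57 around 70% GC. With the GC offset the 4 differences were also called (adjusted p = 0.013 at Nova2, 0.00011 at Nova1, 0.0031 at Rbfox2 and 0.036 at Elavl4). The part of GC content in them was not tested as a cause. The Rbfox2 peak over the 3′ end of the gene was lower at 48 h by -0.71 on the log2 scale (adjusted p = 0.0055). The calls of 48 h over 12 h ended without 12 h R2 at both Rbfox3 peaks (adjusted p = 0.13 for the intronic and 0.091 for the promoter peak) and at Nova1 (adjusted p = 0.098), without 12 h R1 or 12 h R2 at the Nova2 promoter (adjusted p = 0.082 and 0.14), the Rbfox2 promoter (adjusted p = 0.099 and 0.17) and the Rbfox2 3′ peak (adjusted p = 0.071 and 0.13), and without 48 h R1 at the Rbfox3 (adjusted p = 0.080) and Nova2 (adjusted p = 0.23) promoters. At the Elavl4 5′ promoter the call ended without each library but 48 h R2 (adjusted p = 0.068 to 0.24) and with DESeq2 (adjusted p = 0.050).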

How the results depend on the processing

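Peaks gained at 12 h numbered 19, and 29 in a fit of the compared 4 libraries alone. Losses numbered 3, but 0 with DESeq2, 9 with those 4 libraries and 1 where the nearest TSS had to belong to 1 of the 10 genes. Over all peaks, 6638 were gained and 4028 lost at 12 h. Those 4 libraries gave 21403 calls over all peaks, 10804 of them gained, and DESeq2 gave 5293, 4059 of them gained. At 48 h, the 32 gains became 21 with DESeq2, and the 2 losses became 1 with TMM factors, 0 with DESeq2, 1 with 4 libraries and 0 by nearest TSS. The gains over all peaks were 5723, and 3592 with DESeq2. From 12 h to 48 h, the 20 gains became 12 with DESeq2 and 32 with the GC offset, and the 4 losses 1 with DESeq2, 2 with 4 libraries and 2 with the GC offset. For all peaks these gains were 7162, with 4392 by DESeq2 and 9391 with the GC offset. Loci called at 12 h went from 5 to 8 with the GC offset, 4 of them shared and Elavl4 not called. The added loci were Nova2 (0.65), Rbfox3 (0.63), Ptbp2 (0.58) and Celf4 (0.48), all gained. Over all loci, calls at 12 h went from 6037, 1153 of them gained, to 3143, 1965 of them gained, with the GC offset. Loci called at 48 h fell from 6 to 2 with 4 libraries, and over all loci from 1908 to 992. The cause of these shifts was not tested. Leaving out 1 library at a time gave 2 to 29 gains and 0 to 9 losses at 12 h, 11 to 38 and 0 to 4 at 48 h, and 3 to 33 and 0 to 18 from 12 h to 48 h; called loci ranged over 0 to 7, 0 to 8 and 0 to 9. The Elavl2 locus from 12 h to 48 h, -0.08 on the log2 scale with all libraries, was 0.21 without 48 h R1 and -0.45 without 48 h R2, both called. Of 715 alternative values for single peaks, 619 stayed on the same side of the threshold with the same direction, and of 360 for loci, 270; 18 changed sign with no call either way. R1 minus R2 correlated between time points at -0.04, -0.05 and 0.08. This cannot decide whether replicate numbers pair samples across time points, since counting error and library GC trends also enter the differences. The labels do not say either. A replicate block gave 19 gains and 4 losses at 12 h, 35 and 2 at 48 h, and 4 called loci at 12 h. With 2 libraries per time point and a median of 22.7 reads, changes in small peaks may have gone uncalled, and how often was not measured.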
